A study of Mus musculus with 20 samples.

Results

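Plasma-membrane and lysosomal amino acid transporters of the solute carrier families SLC1, SLC3, SLC6, SLC7, SLC38 and SLC43 were examined in livers of responder and non-responder mice. The members were all non-control probes whose gene name on the array begins with Slc1a, Slc3a, Slc6a, Slc7a, Slc38a or Slc43a followed by a digit. This rule took 101 of 41174 probes, which stand for 58 genes, and 35 of those genes were measured well enough to be tested among 17200 rows. The rule also takes Slc7a6os, a gene on the opposite strand of Slc7a6 that is not itself a transporter.

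The mice were males of the C57BL/6J strain (the sample labels write C57BL/6) fed high-fat chow (60% kcal as fat) from weaning until liver collection at an age of 6 weeks. The 10 responder arrays come from mice susceptible to obesity on this diet, the 10 non-responder arrays from mice resistant to it. All mice of both groups received the high-fat diet, so no comparison with another diet enters here. The sources used here do not give how mice were assigned, and nothing in the labels says that each array holds a different mouse. The p-values therefore describe sample-to-sample spread, which may be technical. Each array was hybridised with Cy3-labelled RNA of a whole liver sample. In such bulk samples, fewer cells of a type and less RNA per cell cannot be told apart.

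Amino acids cross cell membranes through carriers that differ in the side chains they accept and in the ions that drive them. In the liver, glutamine is released and taken up by system N and system A carriers of the SLC38 family, cationic amino acids enter through SLC7 proteins, and large neutral amino acids pass through heterodimers of an SLC3 heavy chain and an SLC7 light chain or through SLC43 carriers. The hepatic uptake of amino acids supplies gluconeogenesis, the urea cycle and protein synthesis, and several carriers of these families are induced by the transcription factor ATF4 when amino acids are short.

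Levels are log2 of the processed signal relative to the 75th percentile of the same array, so a level of 0 equals that percentile, and differences are responder minus non-responder. That percentile was between 280.1 and 656.8 intensity units, 55.8% to 71.2% of probes were well above background on an array, no spot was saturated, and arrays correlated with each other at 0.955 to 0.991. The arrays fell into 2 slide series scanned on different days, the first with 4 responder and 6 non-responder arrays and the second with 6 responder and 4 non-responder arrays. Slide series was a term of every fit unless stated otherwise. In the second series, responders 5, 6 and 8 were on slides 12 and 13, whose barcodes run apart from those of its other slides. Those slides held no non-responder, and 67.7%, 68.6% and 71.2% of probes were well above background on these arrays. For them slide and group cannot be told apart, and the slide series term does not remove this. The mean of the 8 measured hepatocyte markers lay between 6.996 and 7.26 in responder livers and between 6.99 and 7.83 in non-responder livers, so the defining genes of liver were at high levels on every array.

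The probes of the 5 transporters with the smallest p-values are given here because the values of these genes rest on them. Each probe has 60 bases, of which the first 30 are printed, and the positions are those of the array's annotation on the mm9 build. Slc43a2 is shown with both of its probes, since they gave different results.
Slc43a2, brightest probe (chr11:75348053-75348112, + strand, designed on the clone AK090207): gcctatcatttataaccaacctttagcctt
Slc43a2, second probe (chr11:75387946-75388005, + strand, designed on the RefSeq transcript): gagagctattgtgtattttccaaaccatct
Slc1a5 (chr7:17383359-17383418, + strand): cctaccctctcaggaaatgggttgtcctgt
Slc38a7 (chr8:98360074-98360133, - strand): agcatccagacttgctgaattgttgttctc
Slc43a1 (chr2:84703269-84703328, + strand): tcgtgttcatagagccgggttctgtggatt
Slc3a2 (chr19:8782189-8782248, - strand): gagggcttgctgttacagttcccctttgtg
The second probe of Slc3a2 has a reading frame without a stop codon over its length and is printed in full. Whether all of its bases are coding was not looked up.
Slc3a2, second probe (chr19:8788183-8788242, - strand): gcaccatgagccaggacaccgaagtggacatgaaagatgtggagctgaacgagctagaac

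No transporter gene passed the test for a difference between responder and non-responder livers. At an adjusted p under 0.05 (limma, Benjamini-Hochberg over all 17200 rows), 0 of 35 members were called, as were 0% of all rows, whose smallest adjusted p reached 0.273. Without adjustment, 5 of 35 members (14.3%) had p under 0.05, against 7.97% of all rows. Of these, 2 members had the higher level in responders, against 4.24% of all rows, and 3 had the lower level, against 3.73%. The 5 genes were Slc43a2, Slc1a5, Slc38a7, Slc43a1 and Slc3a2. The ranges of responder and non-responder arrays overlapped for every tested member, while 0.00581% of all rows had groups that did not overlap. The median difference over the members was 0.00697, beside -0.00317 over all rows, with 20 members at a higher and 15 at a lower value in responders.

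**Figure D1:**
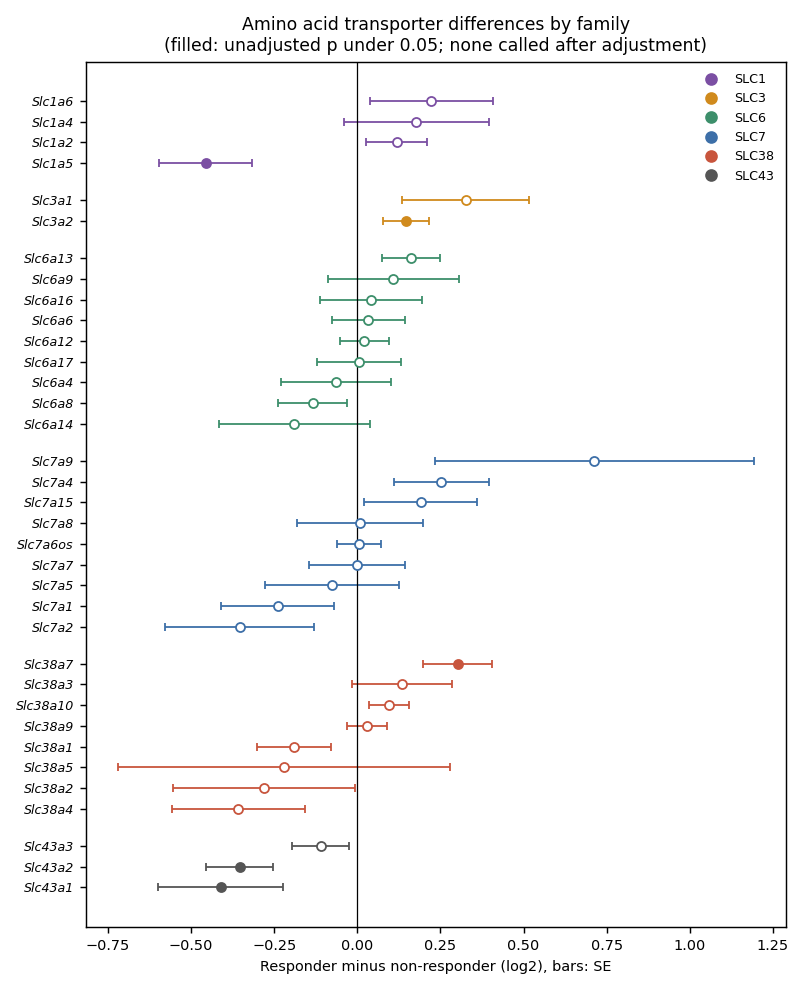
Difference between responder and non-responder livers (log2, horizontal axis) for each of the 35 tested transporter genes, grouped by family, with bars for the SE of the fit (10 responder and 10 non-responder arrays). Filled points mark the 5 genes at an unadjusted p under 0.05, and all 3 SLC43 genes lie left of 0 while both SLC3 genes lie right of it.

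The SLC43 family holds facilitated carriers of large neutral amino acids. By the probe used for each, its 3 tested genes all had lower values in responders, with a median difference of -0.35. Slc43a2, which encodes the branched-chain and phenylalanine carrier LAT4, had levels of -2.28, -2.01 and -1.48 (lowest, median, highest of 10) in responder livers, against -2.02, -1.75 and -0.99 in non-responder livers. The groups overlapped, but each of the 10 responder arrays was lower than the average non-responder of its own slide series. The difference was -0.35 (SE 0.10, 1.28-fold lower), with an unadjusted p of 0.00212 and an adjusted p of 0.490 by limma. Within the slide series the difference was -0.28 in the first and -0.43 in the second.

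These values come from the brightest Slc43a2 probe, with a mean level of -1.84 against -1.95 for the second probe. Whether this clone-based probe measures the coding transcript of LAT4 was not checked. The second probe printed above, which lies 39834 bases further along the chromosome, gave a difference of 0.01 (SE 0.11). It gave 0.11 in the first and -0.08 in the second slide series. The mean of both probes gave -0.17 (adjusted p 0.647, limma). Across the 20 arrays the 2 probes, each centred on its slide series and group, had a correlation of 0.341 (Spearman 0.125), so they shared little of their variation. With normexp background correction the brightest probe itself gave 0.00662. That correction narrowed the spread of log2 values most on responders 1 and 5 (SD 0.59 and 1.5, against 3.01 and 3.04 in the main values). This limits every normexp value given here.

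Slc43a1 encodes LAT3, a related leucine carrier of liver and pancreas. Its levels were -0.13, 0.20 and 1.48 in responder livers, against 0.54, 0.84 and 1.15 in non-responder livers. The responders were split: 7 of them lay below every non-responder, and the remaining 3 (responders 2, 5 and 6) lay at 0.95, 1.48 and 1.20, within or above the non-responder range. Responders 5 and 6 were on slides without a non-responder, but responder 8, on the slide of responder 6, lay at 0.30. The difference was -0.41 (SE 0.19, 1.33-fold lower; unadjusted p 0.0409, adjusted p 0.612, limma). Slc43a3, whose product carries purine nucleobases rather than amino acids, gave -0.11 (SE 0.09, adjusted p 0.770).

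**Figure D2:**
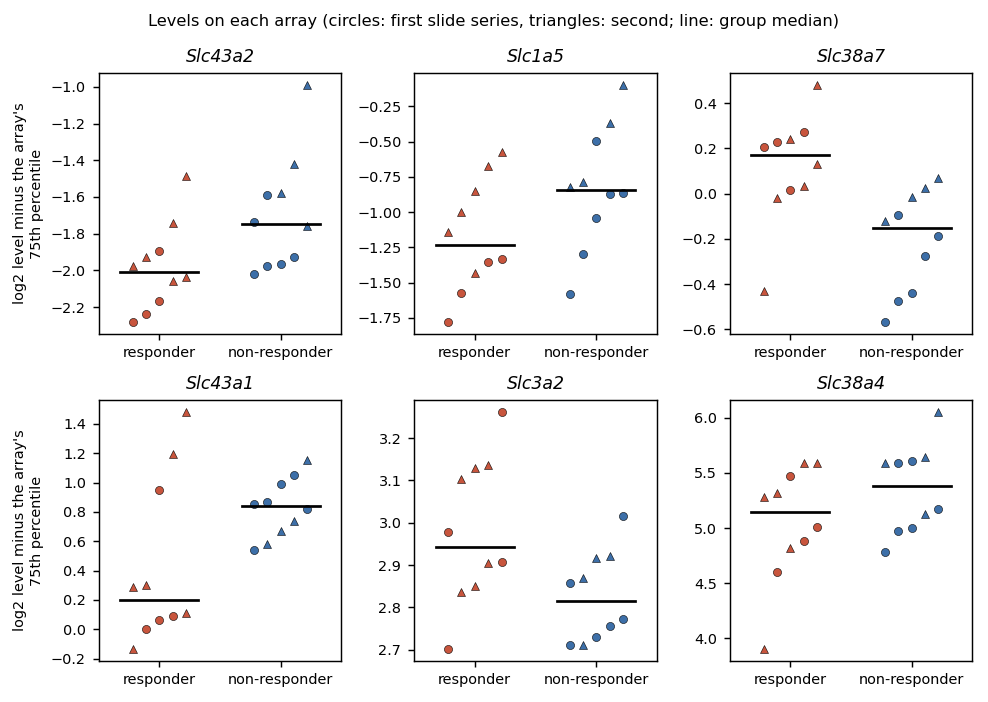
Levels (log2, relative to the 75th percentile of the array) of 6 transporter genes on each responder (left) and non-responder (right) array, with circles for the first slide series, triangles for the second and a line for the group median. The groups overlap in every panel, and for Slc43a1 7 responder points lie below all non-responder points while 3 lie at 0.95 or higher.

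In the SLC1 family of glutamate and neutral amino acid carriers, 4 of 7 genes were tested. Slc1a5 encodes ASCT2, an exchanger that brings glutamine into proliferating cells, and its levels were -1.78, -1.24 and -0.57 in responder livers, against -1.58, -0.84 and -0.10 in non-responder livers. The ranges overlapped widely, yet each of the 10 responders was again lower than the average non-responder of its series. The difference was -0.46 (SE 0.14, 1.37-fold lower; unadjusted p 0.00396, adjusted p 0.508, limma), with -0.49 in series 1 and -0.43 in series 2. It was -0.214 with normexp background correction.

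The adipocyte marker mean is given beside Slc1a5 because it too was lower in responders. That mean, over 8 of 10 listed genes, ran from -1.92 to 0.592 in responder livers and from -1.16 to 1.77 in non-responder livers. It differed by -1.02 (SE 0.40), and 7 of the 8 genes were lower in responders. Counted in either direction, 6 of the 8 had an unadjusted p under 0.05 (limma), against 7.97% of all rows. Slc1a5 correlated with the adipocyte mean across the 20 arrays at r = 0.528 and rho = 0.517 after centring (permutation p 0.0381 and 0.0383, adjusted over 18 relations 0.229 and 0.344), a relation that did not pass after adjustment. The uncentred r was 0.225, and the centred r was 0.594 without the 2 arrays farthest from the median of Slc1a5. With the adipocyte mean as a covariate the Slc1a5 difference was -0.266.

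Slc1a2 encodes GLT-1, a high-affinity glutamate carrier that hepatocytes around the central vein use next to glutamine synthetase. Its levels were 3.24, 3.34 and 3.58 in responder livers, against 2.65, 3.35 and 3.64 in non-responder livers, and the difference was 0.12 (SE 0.09, adjusted p 0.770, limma). The lowest value belonged to non-responder 10. Slc1a4, which encodes the alanine, serine and cysteine carrier ASCT1, had levels of -2.81, -1.78 and -1.58 in responder livers and -3.03, -2.43 and -1.24 in non-responder livers, with a difference of 0.18 (SE 0.22, adjusted p 0.844). The glutamate carrier genes Slc1a1 and Slc1a7 were above background on no array.

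The SLC3 heavy chains carry light chains to the membrane, and both genes had higher values in responders. Slc3a2, the heavy chain of CD98, had levels of 2.70, 2.94 and 3.26 in responder livers, against 2.71, 2.81 and 3.02 in non-responder livers. The responder median was the higher, although the lowest responder lay below every non-responder. The difference was 0.15 (SE 0.07, 1.11-fold; unadjusted p 0.0485, adjusted p 0.626, limma), similar in both slide series at 0.16 and 0.14, and the second probe printed above gave 0.26 (SE 0.12). With normexp the brightest probe gave -0.207.

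Slc3a1, the heavy chain rBAT that pairs with the cystine carrier encoded by Slc7a9, had levels of 1.22, 2.20 and 2.95 in responder livers, against 1.21, 1.56 and 2.47 in non-responder livers. Its difference of 0.33 (SE 0.19) had an adjusted p of 0.698, and was 0.0288 with normexp. Slc7a9 itself was singled out after its values were seen. It was well above background on 6 responder arrays and 1 non-responder array, and its largest values, -2.13 in responder 3 and -2.83 in responder 7, stood far above the highest non-responder at -5.11. The pancreatic acinar marker mean was 5.37 and 4.69 on those arrays. On non-responders 3 and 5 it was 5.38 and 4.23, with Slc7a9 at -5.38 and -6.29. The relation of Slc7a9 with these markers was not tested. Slc7a9 passed the filter through the responder group alone. The Slc7a9 difference was 0.71 (SE 0.48, adjusted p 0.735).

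Among the SLC7 genes, 9 of 16 were tested, 5 with a higher and 4 with a lower value in responders and a median difference of 0.01. Slc7a2, the low-affinity cationic carrier CAT2 of hepatocytes, had levels of 0.90, 1.45 and 2.74 in responder livers, against 1.38, 1.88 and 2.54 in non-responder livers. The difference was -0.35 (SE 0.22, adjusted p 0.716, limma), and 8 of 10 responders were lower than the average non-responder of their series. Slc7a1, the widely expressed high-affinity cationic carrier CAT1, gave -0.24 (SE 0.17, adjusted p 0.743), with 0.07 in the first and -0.55 in the second slide series. Slc7a4, a relative of the cationic carriers, gave 0.25 (SE 0.14, adjusted p 0.680).

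The light chains that pair with the CD98 heavy chain gave pooled values close to 0. Slc7a5, which encodes the large neutral amino acid carrier LAT1, had levels of -4.73, -3.98 and -3.36 in responder livers and -4.61, -3.90 and -2.77 in non-responder livers, a difference of -0.08 (SE 0.20, adjusted p 0.935). Slc7a8, the LAT2 gene, gave 0.01 (SE 0.19), which combines 0.37 in series 1 and -0.35 in series 2 (interaction, unadjusted p 0.0547). Slc7a7, the y+LAT1 gene of dibasic amino acid export, gave -0.000384 (SE 0.14), with 0.29 and -0.29 in the series. Slc7a11, the cystine and glutamate exchanger xCT, and Slc7a6 were above background on no array, and Slc7a10 on 1 non-responder array alone. The groups could not be separated for any light chain.

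SLC38 carriers move glutamine and small neutral amino acids with sodium, and 8 of the 10 genes were tested, 4 in each direction. Slc38a7, which encodes the lysosomal glutamine exporter SNAT7, had levels of -0.43, 0.17 and 0.48 in responder livers, against -0.57, -0.15 and 0.07 in non-responder livers. The responder median lay above every non-responder, and a single responder, at -0.43, lay low among the non-responders. The difference was 0.30 (SE 0.10, 1.23-fold; unadjusted p 0.00929, adjusted p 0.529, limma). The first slide series gave 0.52 and the second 0.08, with an interaction of -0.44 (SE 0.19, unadjusted p 0.0316, adjusted p 0.475, limma). With normexp the difference over both series was 0.191.

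The large hepatic carriers of the family spread widely within groups. Slc38a4, the SNAT4 gene that is typical of liver, had levels of 3.90, 5.14 and 5.59 in responder livers, against 4.79, 5.38 and 6.05 in non-responder livers, with 9 of 10 responders lower than the average non-responder of their series. Its difference was -0.36 (SE 0.20, adjusted p 0.677, limma), but a second probe of the same transcript gave -0.04 (SE 0.13), and normexp moved the brightest probe to -0.901. Slc38a3, the system N carrier SNAT3 that moves glutamine in both directions across the hepatocyte membrane, gave 0.13 (SE 0.15, unadjusted p 0.385).

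Slc38a2 encodes SNAT2, the system A carrier that rises when amino acids are short. Its levels were 2.68, 3.44 and 4.95 in responder livers, against 2.98, 3.90 and 4.75 in non-responder livers, a range of more than 1 log2 unit within each group. The difference was -0.28 (SE 0.28, adjusted p 0.812), and its 4 probes gave values from -0.37 to -0.13. With normexp the brightest probe gave -0.684. The brightest probe gave -0.74 in series 1 and 0.18 in series 2, whereas a second probe of the same RefSeq transcript gave -0.65 and -0.10.

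Slc38a1 (SNAT1, system A) gave -0.19 (SE 0.11, adjusted p 0.693), with 8 of 10 responders on that side. Slc38a9, the lysosomal arginine sensor that feeds the mTORC1 kinase, gave 0.03 (SE 0.06, adjusted p 0.914). Neither differed beyond the spread between samples. Slc38a5, the system N carrier SNAT5, ran from -4.79 to -1.28 in responder livers and from -4.47 to -1.15 in non-responder livers, with a difference of -0.22 (SE 0.50, adjusted p 0.920) that ran from -0.523 without responder 3 to -0.035 without non-responder 3.

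That spread of Slc38a5 followed the pancreatic acinar markers. Their mean over all 10 listed genes ran from -5.21 to 5.37 in responder livers, against -4.30 to 5.38 in non-responder livers, and differed by -0.79 (SE 1.56) between the groups. Slc38a5 was examined for its wide range, after its values were seen. Its centred level correlated with the acinar mean at r = 0.815 and rho = 0.788 over 20 arrays (permutation p 8e-05 and 0.00016, adjusted over 18 relations 0.00144 and 0.00288). Within slide series 1 and 2 it was 0.908 and 0.745, and it was 0.719 without responders 3 and 7. With the acinar mean as a covariate the Slc38a5 difference was -0.000662, against -0.22 without it. No other relation of the 6 genes with the adipocyte, acinar and proliferation means passed the adjusted threshold, and the nearest by r was Slc43a2 with proliferation (r = 0.560, adjusted p 0.159; rho = 0.468, adjusted p 0.344). The mean of the 7 proliferation markers ran from -3.95 to -2.58 in responder livers and from -3.96 to -1.89 in non-responder livers. All 7 had lower values in responders, 4 of them at an unadjusted p under 0.05 (limma), against 3.73% of all rows in that direction. With the proliferation mean as a covariate the Slc43a2 difference was -0.25. The 9 stellate cell and fibroblast markers also all had lower values in responders. Of these, 4 had an unadjusted p under 0.05, against the same 3.73% of all rows. Their mean ran from 1.08 to 1.97 in responder livers and from 1.29 to 2.21 in non-responder livers, with a difference of -0.24 (SE 0.13), and their part in the transporter values was not tested.

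SLC6 proteins are sodium and chloride dependent carriers of neurotransmitters, osmolytes and amino acids, and 9 of 20 genes were tested, 6 with a higher and 3 with a lower value in responders. Slc6a13, the hepatic GABA and taurine carrier GAT2, had levels of 5.35, 5.54 and 5.90 in responder livers, against 5.09, 5.38 and 5.85 in non-responder livers. The difference was 0.16 (SE 0.09, adjusted p 0.660, limma), and the second probe, which shares 40 of 60 bases with the first, gave 0.17. Slc6a8, the creatine carrier gene, gave -0.13 (SE 0.10, adjusted p 0.769).

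The osmolyte and glycine carriers gave values close to 0. Slc6a9 (the glycine carrier GLYT1) gave 0.11 (SE 0.20), Slc6a12 (the betaine carrier BGT1) 0.02 (SE 0.07) and Slc6a6 (the taurine carrier TauT) 0.03 (SE 0.11), with adjusted p of 0.899, 0.953 and 0.951. The value of Slc6a6 combines opposite directions in the slide series. It was 0.33 in the first and -0.26 in the second, and the interaction was -0.59 (SE 0.18), with an unadjusted p of 0.00355 and an adjusted p of 0.414.

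Differences by slide series are set against each other because both series hold both groups, although slides 12 and 13 of the second held responders alone. No row had an interaction of group and slide series at an adjusted p under 0.05 (smallest 0.324), and 6 of 35 members (17.1%) had an unadjusted interaction p under 0.05, against 9.67% of all rows. Beside Slc6a6 and Slc38a7 these were Slc1a4 with 0.66 in the first and -0.31 in the second series, Slc1a6 (a glutamate carrier detected on 7 arrays of responders and 4 of non-responders, so that it passed the filter through the responder group alone) with 0.64 and -0.19, Slc6a13 with 0.36 and -0.03, and Slc7a7 with 0.29 and -0.29. In all 6 the first series gave the higher value. The sign was the same in both series for 17 of 35 members (48.6%), beside 48.8% of all rows. By family this held for 1 of 4 SLC1, 2 of 2 SLC3, 1 of 9 SLC6, 3 of 9 SLC7, 7 of 8 SLC38 and 3 of 3 SLC43 genes. The SLC38 count includes values near 0, Slc38a3 with 0.27 and 0.00016 and Slc38a9 with 0.028 and 0.029. The SLC43 count rests on the brightest Slc43a2 probe, as its second probe changed sign between the series.

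**Figure D3:**
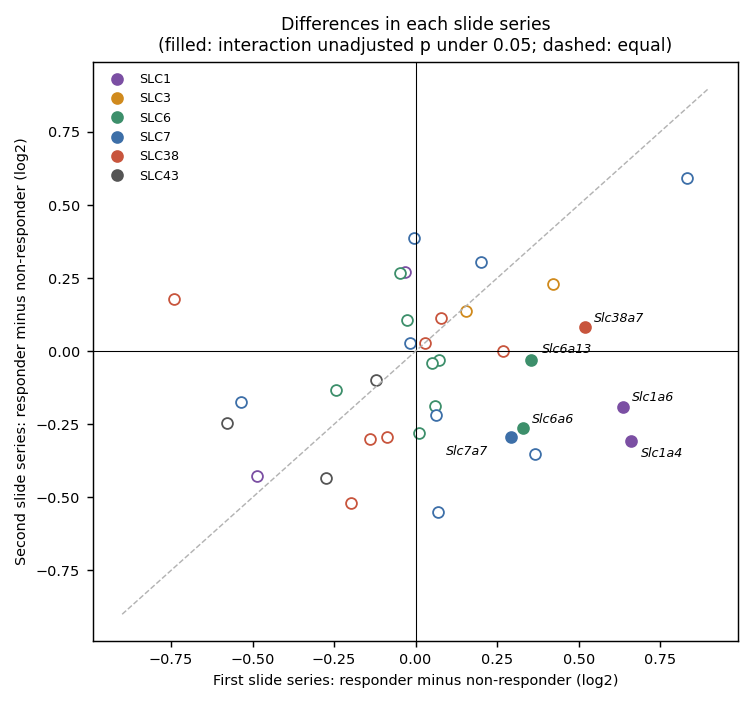
Difference between responder and non-responder livers (log2) of the 35 tested transporter genes in the first slide series (horizontal, 4 responder and 6 non-responder arrays) and in the second (vertical, 6 responder and 4 non-responder arrays), coloured by family, with the dashed line where both are equal. Filled points are the 6 genes with an interaction at an unadjusted p under 0.05, all of which lie below the dashed line.

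Of the 12 tested members with several measured probes, 9 had probes of 1 sign and 3 had probes of both signs, namely Slc1a2, Slc38a9 and Slc43a2. Slc1a2 had 4 probes that gave values from -0.19 to 0.12. The centred correlation with the brightest probe of the gene lay as high as 0.939 for a second Slc38a2 probe and as low as -0.326 for the second Slc6a17 probe. The latter was dim, with a mean level of -5.58. It was detected in 5 responders and 0 non-responders, so that it passed the filter through the responder group alone. Its sign, which places Slc6a17 among the 9 genes, and its correlation therefore cannot show whether the probes of this gene agree. The gap between probes of a gene was widest for Slc43a2 (-0.354 and 0.0135). It was narrowest for Slc6a13 (0.162 and 0.169), whose probes share 40 of 60 bases.

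**Figure D4:**
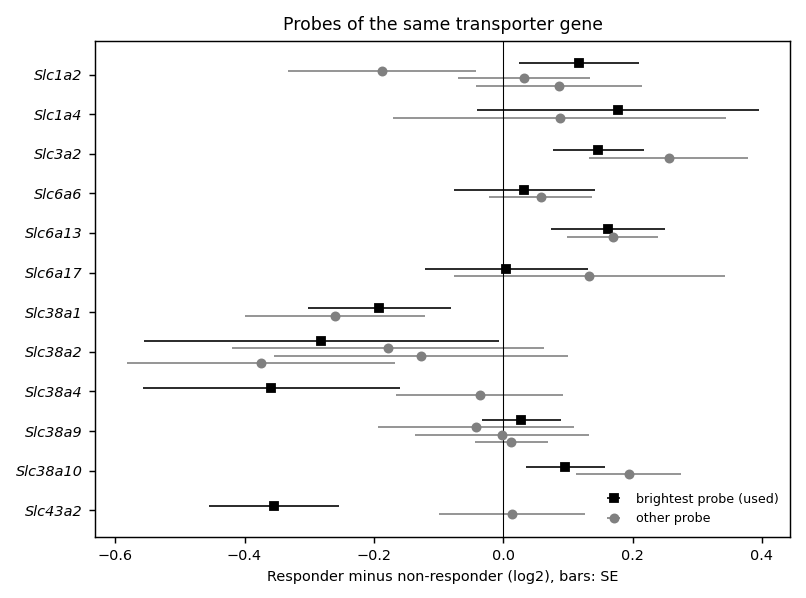
Difference between responder and non-responder livers (log2, horizontal axis, bars: SE, 10 arrays each) for every measured probe of the 12 transporter genes that have several. Black squares are the brightest probes, used elsewhere, and grey circles the others, and the 2 Slc43a2 probes stand apart at -0.35 and 0.01.

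Pairs from a written list, of 2 carrier genes or of a carrier and an enzyme gene, were compared across the 20 arrays. Values were centred on their slide series and group, with a permutation test and adjustment over 10 pairs. Some pairs work together or share a cell type, but no such reason was written for Slc7a2 with Slc38a2. Slc7a2 and Slc38a2 varied together most closely, with r = 0.761 and rho = 0.808 (permutation p 0.00018 and 0.00013, adjusted 0.0018 and 0.0013). It was 0.848 within series 1, 0.806 within series 2 and 0.734 without responders 5 and 6. Slc38a4 and Slc38a3 gave r = 0.633 (permutation p 0.00531, adjusted 0.0265) and rho = 0.550 (adjusted 0.0810), with 0.440 and 0.796 in the slide series, but 0.497 without responders 5 and 7, so that the relation rested in part on those arrays.

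Slc1a2 with Glul, the glutamine synthetase gene of the cells around the central vein, gave r = 0.704 (permutation p 0.022, adjusted 0.0735) and rho = 0.490 (adjusted 0.156), with 0.558 without non-responders 7 and 10. The heavy chain Slc3a2 gave r = -0.370 with Slc7a5 (adjusted p 0.243), -0.0749 with Slc7a7 (adjusted p 0.764) and -0.200 with Slc7a8 (adjusted p 0.513). With normexp all 3 passed the threshold, Slc7a5 and Slc7a8 at -0.774 and -0.646 and Slc7a7 with the opposite sign at 0.681. Under normexp the SD of log2 values was 0.59 in responder 1 and 1.5 in responder 5, against 3.01 and 3.04 in the main values. The part of those arrays in these correlations was not tested. Slc38a2 and Asns, both known targets of ATF4, gave r = 0.154 (adjusted p 0.602). The remaining pairs gave r from 0.271 to 0.317 with adjusted p of 0.428 or more.

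**Figure D5:**
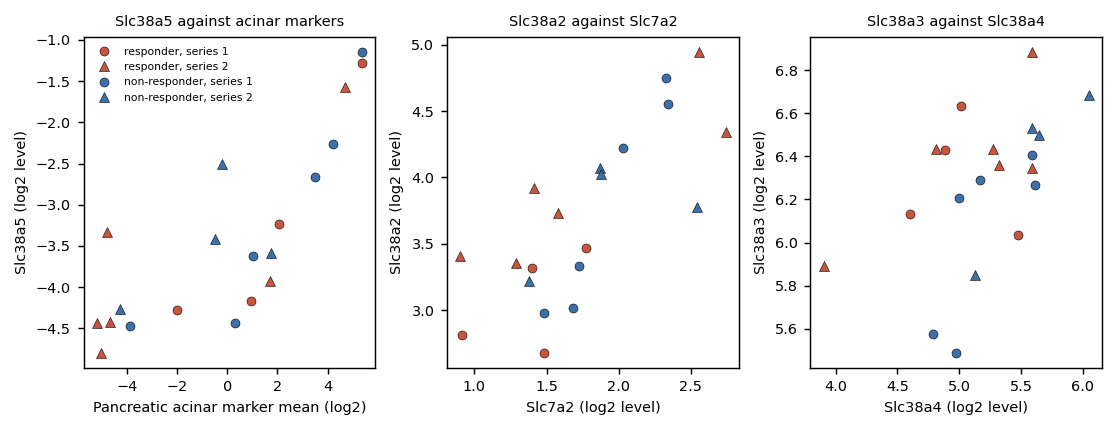
Uncentred levels (log2) on the 20 arrays of Slc38a5 against the pancreatic acinar marker mean, of Slc38a2 against Slc7a2, and of Slc38a3 against Slc38a4, with responder arrays in red, non-responder arrays in blue, circles for the first slide series and triangles for the second. The 3 arrays with the highest acinar means also hold the 3 highest Slc38a5 levels, 2 of them responders and 1 a non-responder.

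The promoters of the transporters were searched for 3 motifs on both strands, in RefSeq windows of the GRCm38.p6 build that reach from 250 bases before to 50 bases after the gene start; 41 of the 58 genes had such a window. The C/EBP-ATF response element in the form TGATGCAA, which ATF4 is known to bind, was found in 3 of the 41 member genes (Slc1a4, Slc7a7 and Slc7a11), in 1.03% of all genes and in 0.895% of all windows. The E-box CACGTG, bound by basic helix-loop-helix factors, was in 8 member genes, Slc43a1 and Slc38a7 among them, in 8.09% of all genes and in 7.15% of all windows. The cyclic AMP response element TGACGTCA was in 0 member genes, in 2.03% of all genes and in 1.79% of all windows. The stretches below are shown for the motif, in capitals, with its start counted from the gene start.
Slc7a7, TGATGCAA at -243 (chr14:54417912-54417952, - strand): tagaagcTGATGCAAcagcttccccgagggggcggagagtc
Slc7a11, TGATGCAA at -66 (chr3:50443646-50443705, - strand): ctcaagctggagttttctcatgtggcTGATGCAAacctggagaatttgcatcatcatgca
Slc43a1, CACGTG at -64 (chr2:84840233-84840290, + strand): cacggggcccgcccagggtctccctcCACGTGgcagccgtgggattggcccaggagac
Slc38a7, CACGTG at -34 (chr8:95853494-95853551, - strand): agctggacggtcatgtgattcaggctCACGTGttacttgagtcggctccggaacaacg
Slc7a11 holds a further match at -47, the reverse complement of the motif, which stands in lower case in the same stretch. Slc43a1 and Slc38a7 are shown because they are among the 5 genes with the smallest p. A match describes the letters of the window and is no evidence of binding.

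Genes that sense, use or otherwise move amino acids were counted from 5 lists, and no gene of any list passed the adjusted threshold. Of the amino acid response list (ATF4 and its targets), 26 of 31 genes were tested, with 9 higher and 17 lower values in responders and a median difference of -0.15, beside -0.00317 over all rows. At an unadjusted p under 0.05, 4 of them had lower values, against 3.73% of all rows, and 1 had a higher value, against 4.24% of all rows. The lowest was Psat1, which encodes phosphoserine aminotransferase of serine synthesis, at -3.50 (median) in responder livers and -3.21 in non-responder livers, with a difference of -0.47 (SE 0.15, adjusted p 0.522, limma). Sesn2, a stress-induced inhibitor of mTORC1, gave -0.34 (SE 0.12, adjusted p 0.525), Cth of cysteine synthesis -0.28 (SE 0.12) and Pck2, the mitochondrial phosphoenolpyruvate carboxykinase, -0.16 (SE 0.08). Shmt2, the mitochondrial serine hydroxymethyltransferase, went the other way at 0.19 (SE 0.07, adjusted p 0.544).

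The glutamine, glutamate and urea cycle list had 20 of 22 genes tested, with a median of -0.03 and a single gene at an unadjusted p under 0.05. This was Got1, the cytosolic aspartate aminotransferase, with levels of 4.59, 5.20 and 6.59 in responder livers, against 4.93, 5.97 and 6.71 in non-responder livers. The groups overlapped over most of their range, and the difference was -0.68 (SE 0.27, adjusted p 0.576). Asns, which makes asparagine from glutamine, gave -0.40 (SE 0.23, adjusted p 0.690).

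Of the amino acid sensing list around mTORC1, 31 of 33 genes were tested, with a median of 0.04, and Nprl2, a subunit of the GATOR1 inhibitor complex, had the smallest p at 0.11 (SE 0.05, adjusted p 0.618). Of the betaine, taurine, creatine and glycine list, 17 of 18 genes were tested, with a median of 0.02, and Gcsh of the glycine cleavage system gave 0.12 (SE 0.05, adjusted p 0.611). The other amino acid and peptide transporters had 19 of 25 genes tested, a median of -0.05 and no gene at an unadjusted p under 0.05. In that list Slc25a22, a mitochondrial glutamate carrier, gave -0.34 (SE 0.17, adjusted p 0.645) and Slc15a2, a peptide carrier, -1.40 (SE 0.73, adjusted p 0.645).

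The 9 tested members not described by name above or described only in passing gave differences from -0.19 to 0.71 and adjusted p of 0.714 or more. They include Slc6a4 (the serotonin carrier), Slc6a14, Slc6a16, Slc6a17, Slc7a15, Slc7a6os and Slc38a10. A further 23 genes were not tested, 16 of them because no probe was well above background on any array. The others, such as the glial glutamate carrier Slc1a3 and the arginine carrier Slc7a3, were above background on at most 4 arrays of a group.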

How the data were processed

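Per the file headers, the deposited scanner files come from Agilent Feature Extraction 10.5.1.1, while the submitters' processing notes name version 9.1. They hold 1-colour spot intensities (linear scale). The processed intensity that was used had its background subtracted and spatial trends removed by that software, per the file headers, with no scaling across arrays. A table of processed intensity that the authors deposited for the whole series was an alternative.

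Control spots were dropped, and log2 signals were expressed relative to the 75th percentile of their array. A probe stayed in if it was well above background on 5 or more arrays of a group, which left 26176, and the brightest probe stood for its gene, giving 17200 rows. RefSeq accessions or symbols gave the gene names. The test was limma 3.58.1 (R 4.3.3) with terms for group and slide series. Correlations used 1e+05 permutations within slide series and group. The members and lists were chosen with earlier results of these data known. Genes were named by a written list of hepatic transporters, plus members at an unadjusted p under 0.05 and the 2 of each family with the smallest p; 26 members were named so. In simulated data of 17064 genes for this comparison, 200 genes were changed in each of 10 runs. Of these, 65.7% of changes of 0.5, 92.1% of 1 and 98.2% of 2 log2 units were recovered, with a median of 2.5 false calls. The shares hold for that number of changed genes. They do not give the share for a single transporter, whose SE may be larger. The number of arrays limits the precision. Alternatives covered background, normalization, filter, probe choice, slide series, slide, replicate number, array weights, single arrays and marker means.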

Additional observations from a re-analysis of the deposited data

Results flagged for a closer look

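Among 52 groups of named transporter genes tested for an array far from the rest, 1 stood out, and chance gives about 1 in 20 groups. Slc1a2 had a level of 2.65 in non-responder 10, while the nearest other non-responder had 3.14 and the highest 3.64. Without that array the Slc1a2 difference was 0.0312, against 0.118 with it.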

How the results depend on the processing

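No member and no row was called under any alternative. Members at an unadjusted p under 0.05 numbered 5, against 9 in the first slide series alone (10.4% of all rows), 1 in the second alone (6.88%), 8 with the proliferation mean as a covariate (10.2%), 3 with the adipocyte mean (6.67%), 3 with normexp (2.33%) or plain subtraction (5.22%), and 3 to 6 when leaving out an array. All rows at that level numbered 1371 (7.97%), against 401 with normexp and 897 with plain subtraction. The median member difference of 0.00697 became -0.0654 with normexp and -0.0979 in the second series, and lay between -0.014 and 0.0327 when leaving out an array. Quantile normalization, the slide as a random block, the acinar covariate and both other filters turned no direction. Whether replicate numbers pair the samples was not settled. The deviations of same-numbered arrays correlated at -0.183 to 0.591, 6 of 10 over 0.1, and 3 of 10 responders matched their own number best. No chance level was computed for these values. The replicate block moved the members at an unadjusted p under 0.05 to 6 and all such rows to 1829, and turned Slc6a12 to -0.0323 and Slc7a7 to 0.0442.

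Normexp turned Slc1a2 to -0.31, Slc3a2 to -0.207, Slc6a6 to -0.262, Slc6a9 to -0.41, Slc6a12 to -0.431, Slc6a13 to -0.357, Slc7a1 to 0.306, Slc7a5 to 0.366, Slc38a1 to 0.0676, Slc38a3 to -0.325, Slc38a5 to 0.332, Slc38a9 to -0.0654 and Slc43a2 to 0.00662, and the correlations of Slc3a2 with Slc7a7 to 0.681 (now past the threshold), of Slc3a1 with Slc7a9 to -0.331 and of Slc1a5 with Slc38a2 to -0.289. Under it the SD of log2 values over kept probes was 0.59 in responder 1 and 1.5 in responder 5, against 1.69 in non-responder 3 and 1.96 or more in the rest. Plain subtraction gave Slc7a7 0.0175 and Slc7a8 -0.00847, the authors' values Slc38a1 0.113, the mean of probes Slc38a9 -0.000747, no slide series term Slc7a7 0.000271 and Slc7a8 -0.157, and array weights Slc6a12 -0.000627 and Slc7a7 0.0746. The first series alone gave Slc1a2 -0.0341, Slc6a8 0.0111, Slc6a9 -0.0491, Slc7a1 0.0695, Slc7a5 0.0638 and Slc7a7 0.291. The second alone gave Slc1a4 -0.307, Slc6a6 -0.263, Slc6a12 -0.0302, Slc6a13 -0.0313, Slc7a8 -0.353 and Slc38a2 0.178. Marker covariates, chosen after seeing the data, gave Slc6a8 0.0445 and Slc38a5 0.373 (adipocyte), and Slc6a6 -0.00787, Slc6a9 -0.144, Slc6a12 -0.0124, Slc7a7 0.196 and Slc38a9 -0.0126 (proliferation). When leaving out an array, Slc6a12 ran from -0.00695 to 0.0464, Slc6a6 from -0.00437 to 0.0809, Slc7a5 from -0.156 to 0.0324, Slc7a7 from -0.059 to 0.0733 and Slc7a8 from -0.0795 to 0.0913. Slc38a5 ran from -0.523 to -0.035, Slc38a3 from 0.0643 to 0.191, Slc6a9 from 0.0278 to 0.19 and Slc38a2 from -0.406 to -0.173 with no change of sign. The causes were not tested. Slc1a2 with Glul passed at 0.603 in the authors' values, 0.736 uncentred and 0.935 with normexp, which also took Slc3a2 with Slc7a5 (-0.774), Slc3a2 with Slc7a8 (-0.646) and Slc38a3 with Glul (0.885) past the threshold, and Slc38a4 with Slc38a3 no longer passed at 0.534 uncentred and 0.497 without 2 arrays.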
